A study of Mus musculus with 32 samples.

Results

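Keratin genes of the basal and suprabasal epidermis were examined in epidermis of Ppard wild-type and Ppard-deficient mice, with and without a single exposure to ultraviolet light (UV). The 9 genes were matched by symbol among 55401 gene identifiers, of which 54 were keratin genes. Krt5, Krt14 and Krt15 are the 3 basal members, and Krt1, Krt10, Krt2, Krt77, Krt78 and Krt80 are the 6 suprabasal members. All 9 passed the filter on low counts and were among the 15546 genes tested.

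The samples were 32 hairless mice of a mixed SKH-1/SV129/BL6/J background, aged 10 to 14 weeks, with 1 mouse per library. WT mice carried intact Ppard, which encodes the nuclear receptor PPARβ/δ, and KO mice were their Ppard-/- littermates, deficient in the receptor in every cell type. Control mice were handled without irradiation, and UV mice received 120 mJ/cm2 once and were sampled 24 h later. Each combination of genotype, sex and treatment held 4 mice. The epidermis of the dorsal skin was peeled from the dermis before RNA extraction. A hairless mutation was shared by all groups, so the follicles left in these sheets are not those of haired skin.

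Keratins are the intermediate filament proteins of epithelial cells. A type I keratin must pair with a type II keratin to build a filament, and both partners are needed in equal amounts. Keratinocytes attached to the basement membrane build filaments from K5 and K14, and the cells above them switch to K1 and K10 as they differentiate. K15 is a further basal type I keratin that also marks stem cells of the hair follicle bulge. K2 belongs to the upper spinous and granular layers, and K77, K78 and K80 are type II keratins of differentiating cells whose roles are less well known. K6, K16 and K17 are induced in wounded or stressed epidermis.

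In the GRCm38 annotation, the 3 type I genes lie in the keratin cluster of chromosome 11 and the 6 type II genes in that of chromosome 15, all on the minus strand. Krt14 occupies chr11:100203162-100207548, Krt15 chr11:100131758-100135928 and Krt10 chr11:99385254-99389364. Krt5 occupies chr15:101707070-101712898 and Krt1 chr15:101845426-101850794. Krt2 occupies chr15:101810689-101818169 and Krt77 chr15:101858731-101869705. Krt78 occupies chr15:101946001-101954287 and Krt80 chr15:101347444-101370162.

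Promoter windows from 250 bases before to 50 bases after a start site were found in RefSeq (GRCm38.p6) for 6 of the 9 genes. That of Krt14 belongs to a start site 1518 bases inside the gene and was left out. The other 5 start at the annotated 5′ end of their gene, with an offset of 7 bases for Krt5. They are printed to show the basal Krt5, called lower with UV in WT and not called in KO, beside 4 suprabasal genes that fell in both genotypes. The difference between the Krt5 responses of the genotypes did not pass (edgeR adjusted p = 0.121). The Krt5 call in WT was also lost when certain single mice were left out. The windows span chr15:101712856-101713155 for Krt5, chr11:99389315-99389614 for Krt10, chr15:101818120-101818419 for Krt2, chr15:101869656-101869955 for Krt77 and chr15:101954238-101954537 for Krt78. They are given 5′ to 3′ on the minus strand, with capitals for the letters TATAA and for CCAAT or its reverse complement ATTGG.
Krt5: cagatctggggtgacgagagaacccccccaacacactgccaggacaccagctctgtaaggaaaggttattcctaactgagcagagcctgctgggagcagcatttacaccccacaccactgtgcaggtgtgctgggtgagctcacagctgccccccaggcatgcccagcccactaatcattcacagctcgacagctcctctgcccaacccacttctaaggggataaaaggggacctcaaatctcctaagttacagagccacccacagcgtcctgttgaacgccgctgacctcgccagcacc
Krt10: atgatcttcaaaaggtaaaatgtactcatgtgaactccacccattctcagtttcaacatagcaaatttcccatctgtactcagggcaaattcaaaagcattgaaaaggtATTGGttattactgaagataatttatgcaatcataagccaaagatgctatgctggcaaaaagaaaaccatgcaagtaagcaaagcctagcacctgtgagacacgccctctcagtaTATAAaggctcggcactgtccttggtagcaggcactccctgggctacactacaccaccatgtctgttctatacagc
Krt2: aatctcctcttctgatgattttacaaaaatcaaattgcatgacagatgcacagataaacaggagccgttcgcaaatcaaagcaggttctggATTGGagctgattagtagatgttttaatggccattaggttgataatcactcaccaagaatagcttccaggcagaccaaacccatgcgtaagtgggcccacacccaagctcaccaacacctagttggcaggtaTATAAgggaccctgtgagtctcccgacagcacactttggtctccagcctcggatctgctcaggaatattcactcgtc
Krt77: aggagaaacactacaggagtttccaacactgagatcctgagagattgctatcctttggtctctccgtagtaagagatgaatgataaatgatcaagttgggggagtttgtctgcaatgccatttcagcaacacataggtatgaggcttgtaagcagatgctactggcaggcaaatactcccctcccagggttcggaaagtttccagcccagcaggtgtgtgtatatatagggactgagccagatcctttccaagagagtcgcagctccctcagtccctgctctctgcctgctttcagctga
Krt78: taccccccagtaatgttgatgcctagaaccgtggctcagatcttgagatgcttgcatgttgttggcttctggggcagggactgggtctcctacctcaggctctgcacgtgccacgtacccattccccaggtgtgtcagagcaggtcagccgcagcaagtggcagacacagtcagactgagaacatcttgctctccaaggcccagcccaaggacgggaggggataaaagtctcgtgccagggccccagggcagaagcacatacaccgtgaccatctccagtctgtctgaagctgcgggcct

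TATAA was present on the gene's strand in Krt10, from base -26 to -22 before the start site, and in Krt2, from -27 to -23, and so in 2 of the 5 keratin windows. It was present on either strand in 24.9% of 32851 mouse promoter windows. CCAAT was present in the same 2 keratin windows and in 37.4% of all windows. The AP-1 letters TGANTCA (7.81% of all windows), the AP-2 letters GCCNNNGGC (16.6%) and the GC box GGGCGG (35.7%) occurred on neither strand of the 5 windows. These matches describe the letters of the windows only, and the start sites of the other genes' windows were not checked. Only the exact letters were searched, so similar ones were not counted, such as TATATA in Krt77 and GATAAAA in Krt5 and Krt78. A window without TATAA is therefore not shown to lack a TATA element.

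Between 22919428 and 40653581 reads per mouse were assigned to genes, with a median of 27600228.5. Ppard reads remained in KO mice. Without UV the lowest, median and highest Ppard values were 87.3, 94.0 and 105 cpm (reads of the gene scaled to a library of 1e6 reads) in WT and 70.3, 77.5 and 88.9 cpm in KO, which overlapped. After UV they were 252, 279 and 326 cpm in WT and 175, 219 and 239 cpm in KO, which did not overlap (log2 fold change -0.42, SE 0.07, edgeR adjusted p = 0.00114). Counts per gene do not show which exons these reads came from, so they are a limited check of the genotype labels. Of 8 keratinocyte markers, 4 of them keratins described here, all were detected, with a summed level from 32159 to 116380 cpm over the 32 mice. Markers of other cells moved as well. Of 6 Langerhans cell markers 5 fell with UV in WT and 4 in KO, where 1 rose, and of 6 T cell markers 5 fell in each genotype, while 36.5% of all genes fell in WT and 33.5% in KO. Of 4 endothelial markers 4 rose in WT and 3 in KO, and of 4 neutrophil markers tested 2 rose in WT and 3 in KO, where 1 fell, beside 34.5% and 37.3% of all genes. Of 6 dermal fibroblast markers 3 fell in WT and 0 passed in KO. The summed median of the T cell markers went from 146 to 29.0 cpm in WT and from 130 to 52.1 cpm in KO. For the endothelial markers it was low, going from 1.53 to 6.63 cpm in WT and from 0.963 to 10.4 cpm in KO. For the neutrophil markers it went from 29.9 to 36.9 cpm in WT and from 33.2 to 38.6 cpm in KO. Sebocyte markers had a summed median of 37.7 and 74.1 cpm in WT and 17.9 and 139 cpm in KO, without and with UV. Their ranges overlapped between treatments in both genotypes. Among the 3 sebocyte markers tested 1 rose in WT and 2 in KO, beside the same 34.5% and 37.3% of all genes. The 6 dermal fibroblast markers summed to at most 92.2 cpm, except in the KO female UV mouse 54F, where they reached 1982 cpm. The 5 skeletal muscle markers summed to 3.71 to 2567 cpm, with a wide range in every combination of genotype and treatment. Their summed median was 419 cpm in WT Control mice, so high values were not limited to single mice there. In the other combinations this median was lower, at most 80.2 cpm (KO Control mice). The part of these cells in the keratin results was not tested. Fewer cells of a layer and less keratin RNA per cell cannot be told apart in such whole-tissue libraries.

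Without UV, the suprabasal pair Krt10 and Krt1 had the highest median levels of the basal and suprabasal keratins examined. Levels of different genes were compared as cpm per kb of exonic length. In WT Control mice Krt10 was highest, with 13531, 15667 and 16912 cpm per kb as the lowest, median and highest of 8 mice, and it did not overlap with Krt1, its type II partner, at 5623, 6286 and 6411. Krt77 (median 3803), Krt14 (3181) and Krt5 (2184) followed, and each overlapped with its neighbour in this order. The remaining genes were far lower, with Krt80 at a median of 180, Krt78 at 173, Krt15 at 141 and Krt2 at 45.6 cpm per kb, again overlapping from one to the next. The annotated exons of Krt1 and Krt80 extend well beyond their longest coding transcripts. Per kb of that transcript the Krt1 mean rose from 6115 to 10998 in WT Control mice, still below Krt10 at 15538, and the Krt80 mean from 175 to 286.

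After UV the order changed. In WT mice Krt14 led with a median of 9545 cpm per kb (range 7638 to 12990) and stood above Krt10 (3545, 1889 to 4772) with no overlap. Krt5 came next at a median of 1563, overlapping with Krt1 at 1129. Krt77 and Krt80, at 260.0 and 257, overlapped. Krt78 (17.2), Krt2 (13.5) and Krt15 (2.41 cpm per kb) were lowest. KO UV mice showed the same order of medians, from 11019 for Krt14 through 3644 for Krt10 to 3.22 for Krt15. The middle of this order rests on the length used. Per kb of the longest coding transcript, Krt1 (median 2030 in WT UV mice) came before Krt5 (1563) and overlapped with Krt10 (3578), and Krt80 (420) came before Krt77 (260.0).

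The UV response was tested as the mean over the sexes of UV against Control in 1 edgeR quasi-likelihood fit of all 32 mice. In WT mice all 9 keratins passed an adjusted p of 0.05. Krt14 and Krt80 rose and the other 7 fell. These counts stand beside 71% of all genes tested that passed, 34.5% higher and 36.5% lower. In KO mice 8 of the 9 passed, with 2 higher and 6 lower, against 70.8% of all genes, 37.3% higher and 33.5% lower. Krt5 was the member that did not pass. For 6 of the 9 genes, Krt14, Krt15, Krt1, Krt10, Krt77 and Krt78, no UV mouse overlapped with any Control mouse, in either genotype. The same held for 43.4% of all genes tested in WT and 35.1% in KO.

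**Figure D1:**
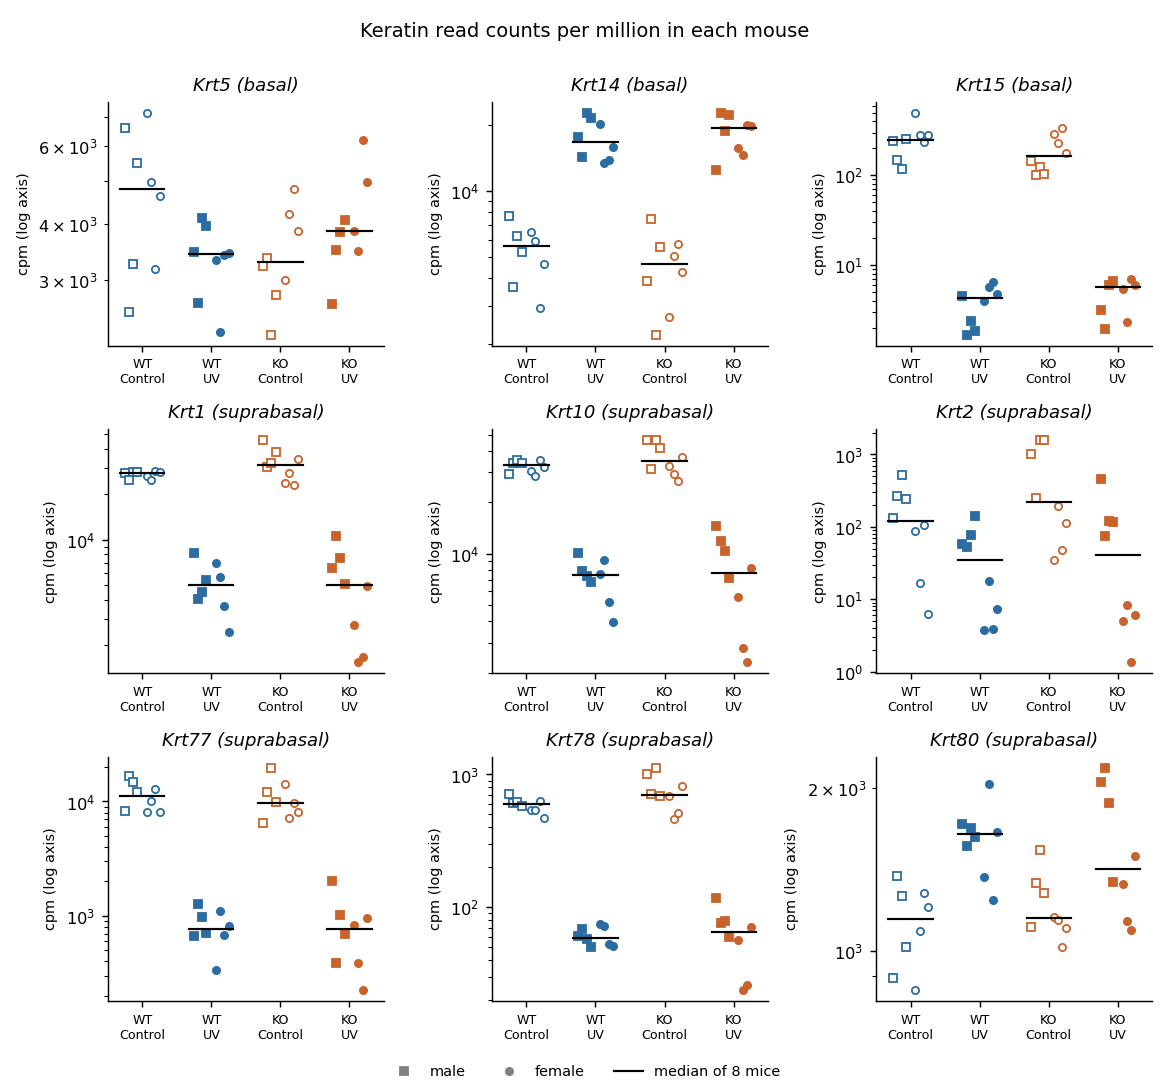
Scaled counts (cpm) of the 9 keratins in each of the 32 mice (1 point per mouse, squares for males, circles for females, open for Control, filled for UV, blue for WT, orange for KO), on log axes that differ between panels, with the median of 8 mice as a line. Krt15, Krt1, Krt10, Krt77 and Krt78 fell clear of the Control range, Krt14 rose above it, and Krt5, Krt2 and Krt80 overlapped.

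Among the basal genes, Krt14 rose in both genotypes. Its lowest, median and highest values were 2918, 5592 and 7691 cpm in WT Control mice and 13427, 16780 and 22836 cpm in WT UV mice. In KO mice they were 2208, 4654 and 7476 cpm without UV and 12543, 19372 and 22663 cpm with UV. Every irradiated mouse was thus above every Control mouse of either genotype. The increase was 3.26-fold in WT (log2 1.70, SE 0.22, adjusted p = 7.66e-08) and 3.99-fold in KO (log2 2.00, SE 0.22, adjusted p = 5.46e-09).

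Krt5, the type II partner of Krt14, did not rise with it. WT Control mice held 2533, 4799 and 7144 cpm (lowest, median, highest) and WT UV mice 2288, 3434 and 4126 cpm, with wide overlap. KO Control mice held 2254, 3291 and 4807 cpm and KO UV mice 2645, 3854 and 6212 cpm, which also overlapped. Krt5 fell 1.42-fold in WT (log2 -0.50, SE 0.18, adjusted p = 0.0157). In KO its log2 change was 0.25 (95% confidence interval -0.12 to 0.62, adjusted p = 0.223). The fall in WT lost its call without the WT female Control mouse 61F (log2 -0.35, adjusted p = 0.0836) or the WT male Control mouse 43M (log2 -0.38, adjusted p = 0.0586), and in males alone (log2 -0.33, adjusted p = 0.274). Of the 100-base windows of the Krt5 transcript, 2.38% also occur in transcripts of Krt6a or Gm5478, and 2.88% of those of Krt14 occur in Krt16. No window of the other 7 transcripts is shared with another gene.

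Krt15 showed the largest relative fall of the 9 genes. Its values were 118, 249 and 501 cpm in WT Control mice and 1.67, 4.26 and 6.45 cpm in WT UV mice. In KO mice they were 102, 163 and 335 cpm without UV and 1.91, 5.68 and 7.05 cpm with UV. The groups were far apart, and the shallowest value still rested on 46 reads. The fall was 67.5-fold in WT (log2 -6.08, SE 0.30, adjusted p = 7.82e-16) and 36.3-fold in KO (log2 -5.18, SE 0.29, adjusted p = 8.70e-15).

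Krt10 and Krt1, the major pair of the spinous layer, fell together. Krt10 went from 28605, 33120 and 35751 cpm to 3993, 7493 and 10087 cpm in WT, and from 26689, 34855 and 46398 cpm to 2301, 7704 and 14554 cpm in KO. Krt1 went from 24824, 27753 and 28303 cpm to 2445, 4983 and 8171 cpm in WT, and from 23089, 31201 and 45458 cpm to 1547, 5016 and 10583 cpm in KO. The spread among KO mice was wider than among WT mice in both treatments. Krt10 fell 4.50-fold in WT (log2 -2.17, SE 0.21, adjusted p = 4.50e-10) and 5.02-fold in KO (log2 -2.33, SE 0.21, adjusted p = 1.36e-10). Krt1 fell 5.30-fold in WT (log2 -2.41, SE 0.23, adjusted p = 3.01e-10) and 7.0-fold in KO (log2 -2.81, SE 0.23, adjusted p = 2.09e-11).

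Krt77 and Krt78 fell with larger fold changes than this pair, a difference between genes that was not tested. Krt77 had 8017, 11148 and 16625 cpm in WT Control mice and 340, 762 and 1277 cpm in WT UV mice. In KO mice it had 6425, 9762 and 19654 cpm and then 226, 764 and 2016 cpm. The fall was 13.8-fold in each genotype (log2 -3.78, SE 0.35 in both, adjusted p = 1.68e-10 in WT and 1.82e-10 in KO). Krt78 went from 467, 595 and 717 cpm to 50.2, 59.1 and 74.9 cpm in WT, and from 458, 698 and 1121 cpm to 23.9, 65.2 and 117 cpm in KO. It fell 9.57-fold in WT (log2 -3.26, SE 0.20, adjusted p = 4.99e-14) and 12.2-fold in KO (log2 -3.61, SE 0.20, adjusted p = 9.68e-15).

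Krt2 fell on average, but its mice overlapped between treatments. Within a sex, UV mice reached 142 cpm in WT males (lowest Control mouse 133), 17.9 cpm in WT females (6.21) and 462 cpm in KO males (250), and KO females alone did not overlap (8.20 and 34.6). The fall was 4.79-fold in WT (log2 -2.26, SE 0.55, adjusted p = 6.78e-04) and 10.4-fold in KO (log2 -3.38, SE 0.58, adjusted p = 9.04e-06). Krt80 was the only suprabasal member of the 9 that rose. It went from 847, 1148 and 1375 cpm to 1245, 1645 and 2036 cpm in WT, and from 1017, 1149 and 1538 cpm to 1094, 1419 and 2183 cpm in KO, with overlap in both. The rise was 1.44-fold in WT (log2 0.53, SE 0.11, adjusted p = 1.76e-04) and 1.27-fold in KO (log2 0.35, SE 0.11, adjusted p = 0.00789). In KO females alone the log2 change of Krt80 was 0.19 (adjusted p = 0.305), and in KO males 0.50 (adjusted p = 0.00826).

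**Figure D2:**
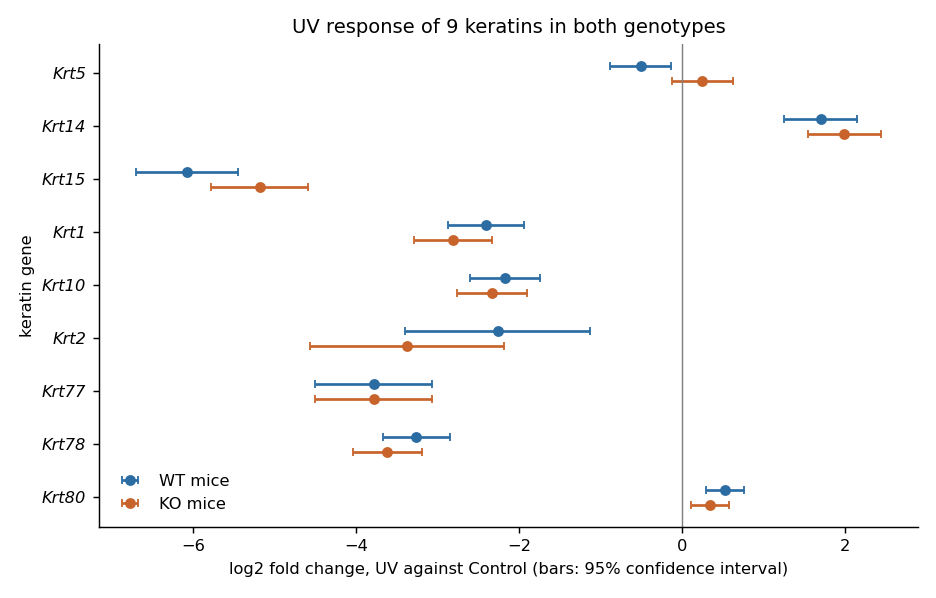
Log2 fold change of UV against Control for each keratin (points) with its 95% confidence interval (bars), in WT (blue) and KO mice (orange). Values ran from -6.08 for Krt15 to 2.00 for Krt14, and the Krt5 interval lay below 0 in WT and spanned 0 in KO.

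Within single groups of 4 mice, 8 of the 9 keratins passed in WT males (60.9% of all genes), 9 in WT females (61.3%), 8 in KO males (61.7%) and 7 in KO females (60.7%). Among these groups Krt5 passed in WT females (log2 -0.68, SE 0.26, adjusted p = 0.0254) and lost that call without mouse 61F (adjusted p = 0.188) or 57F (adjusted p = 0.103). The fall of Krt2 in WT males (log2 -1.8, SE 0.76, adjusted p = 0.0424) was lost without any one of 6 of the 8 mice, at adjusted p from 0.0513 to 0.144, and also with limma (adjusted p = 0.0567) and with no filter on low counts (adjusted p = 0.0569). These are the Control mice 54M, 56M and 69M and the UV mice 32M, 38M and 57M. The KO results were computed again without the fibroblast-rich mouse 54F. The log2 changes were then 2.05 for Krt14, 0.32 for Krt5 (adjusted p = 0.121), -5.04 for Krt15, -2.22 for Krt10, -2.69 for Krt1, -3.69 for Krt77 and -3.49 for Krt78, and the same 8 genes passed.

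Although single genes moved by up to 67.5-fold, keratin reads as a whole took a similar share of the libraries in each group. The 9 genes together took 8.12% to 8.97% of the reads on genes in WT Control mice (median 8.58%) and 2.90% to 4.06% in WT UV mice (median 3.63%). In KO mice the share went from a median of 8.61% (7.74% to 10.1%) to 3.82% (2.61% to 4.71%). The 6 suprabasal genes took medians of 7.55% and 1.47% in WT and 7.88% and 1.48% in KO, without and with UV. The 3 basal genes went from a median of 1.08% to 2.01% in WT and from 0.80% to 2.29% in KO. The stress keratins Krt6a, Krt6b, Krt16 and Krt17 went from a median of 0.32% to 5.88% in WT and from 0.384% to 5.89% in KO, and all 4 passed the test in both genotypes. All 54 keratin genes together took a median of 8.96% and 9.58% in WT and 9.39% and 9.6% in KO, without and with UV, with overlapping ranges. No test was run on these shares.

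**Figure D3:**
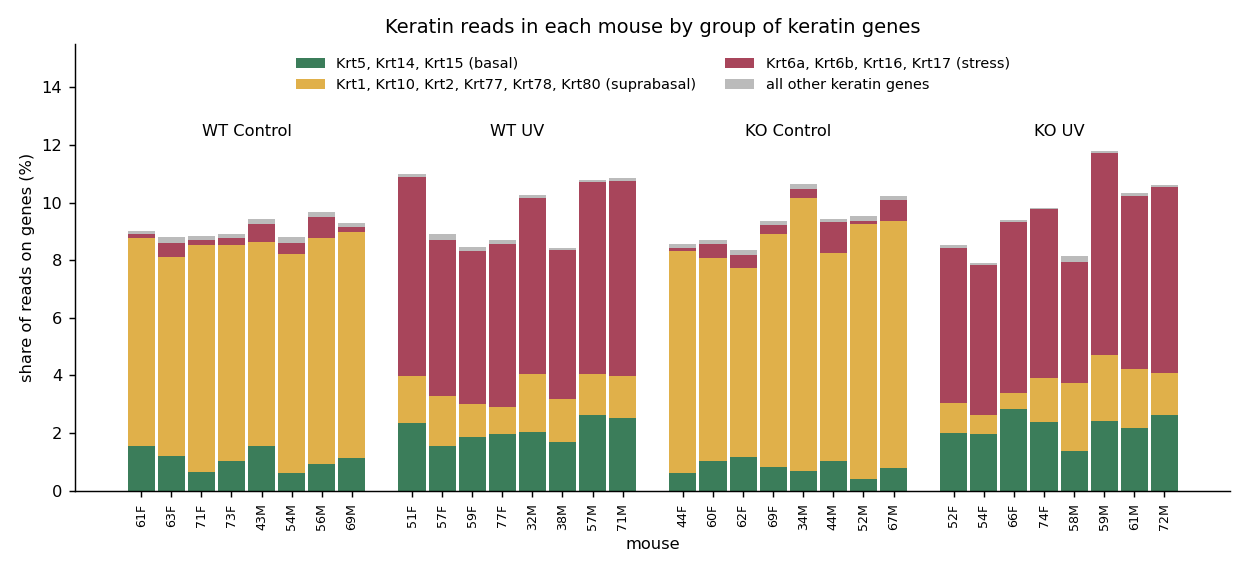
Share of reads on genes (%) taken by keratin genes in each mouse, stacked by basal, suprabasal, stress and all other keratins, with mice grouped by genotype and treatment. The suprabasal share shrinks from medians of 7.55% and 7.88% to 1.47% and 1.48%, while the stacked total stays between 7.92% and 11.8%.

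Within the 9 genes, Krt14 alone took a median of 6.48% of the reads in WT Control mice and 50.1% in WT UV mice, and 5.11% and 50.7% in KO. Krt1 and Krt10 together took 70.5% and 33.9% in WT and 74.5% and 31.3% in KO. The summed type II reads were 1.19 times the type I reads in WT Control mice (1.14 to 1.22) and 0.435 times in WT UV mice (0.379 to 0.509). In KO mice this ratio went from 1.18 (1.14 to 1.22) to 0.428 (0.378 to 0.508). The 2 treatments did not overlap. These ratios of reads are not corrected for gene length, so a value near 1 does not mean equal amounts of RNA. Over all 54 keratin genes the ratio of type II to type I reads moved far less, from a median of 1.16 to 1.01 in both genotypes. Here 27 genes were counted as type I by their symbols and the other 27 as type II.

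The balance of partner keratins was measured as the log2 ratio of their reads within each mouse, which does not depend on library scaling. The ratio is not corrected for gene length either, so its change with UV is read here rather than its distance from 1. Krt5 reads were 0.520, 0.925 and 1.10 times the Krt14 reads in WT Control mice (lowest, median, highest) and 0.164, 0.184 and 0.245 times in WT UV mice. In KO mice the ratio was 0.449, 0.840 and 1.13 without UV and 0.154, 0.224 and 0.309 with UV. The treatments did not overlap in either genotype. The ratio fell 4.54-fold in WT and 3.55-fold in KO. Two-sided exact permutation tests within sex gave p = 0.000408 for each, the smallest value that 4900 arrangements allow, and 0.00122 after adjustment over 12 tests.

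The ratio of Krt1 to Krt10 changed less with UV. Krt1 reads were 0.725, 0.844 and 0.937 times the Krt10 reads in WT Control mice and 0.515, 0.656 and 0.918 times in WT UV mice, which overlapped. In KO mice the ratio was 0.698, 0.915 and 0.983 without UV and 0.445, 0.654 and 0.892 with UV, also with overlap. The fall was 1.38-fold in KO (exact permutation p = 0.00531, adjusted p = 0.0127) and 1.21-fold in WT, where the adjusted value missed the threshold (exact permutation p = 0.0269, adjusted p = 0.0539). Reads of Krt14, the basal type I keratin, relative to Krt10, the suprabasal one, went from a median of 0.165 to 2.67 in WT and from 0.124 to 2.63 in KO, with no overlap (log2 difference 3.95 and 4.50, exact permutation p = 0.000408, adjusted p = 0.00122 for both). The widest range was that of KO UV mice, from 0.862 to 8.75.

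**Figure D4:**
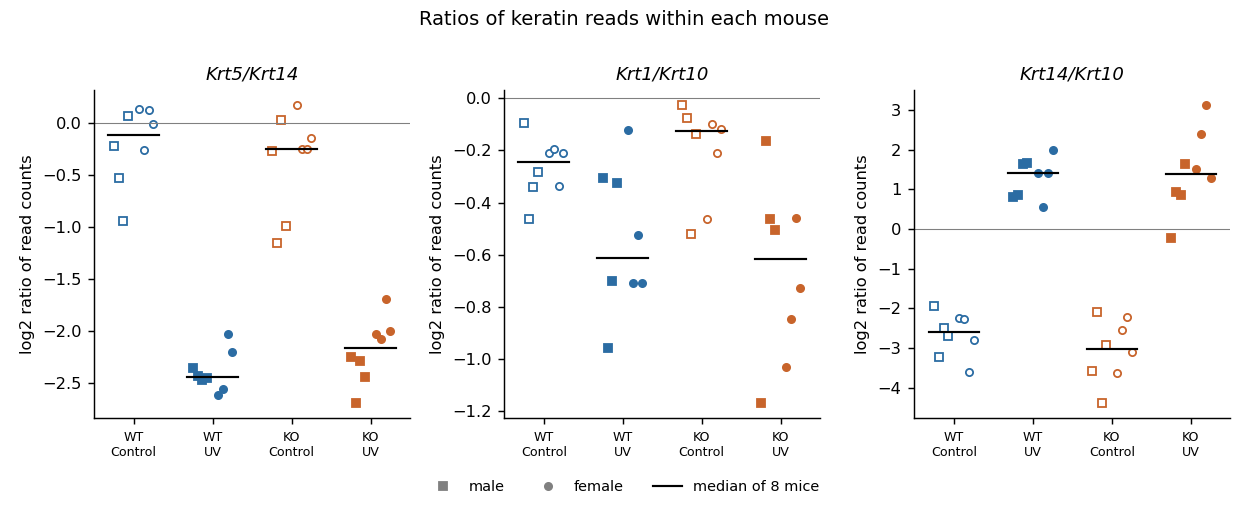
Log2 ratio of read counts for Krt5/Krt14, Krt1/Krt10 and Krt14/Krt10 in each mouse (squares for males, circles for females, open for Control, filled for UV, blue for WT, orange for KO), with the median of 8 mice as a line. Control and UV mice separate for Krt5/Krt14 and Krt14/Krt10, and overlap for Krt1/Krt10.

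Of the 45 other keratin genes, 36 were tested, and their median log2 change was 0.36 in WT and 0.43 in KO, against -0.01 and 0.09 over all genes. In WT 8 rose and 2 fell, and in KO 7 rose and 3 fell, so that 10 of 36 passed in each genotype, beside 71% and 70.8% of all genes. Beside the 4 stress keratins, Krt18, Krt42 and Krt75 rose in both genotypes, and Krt84 passed in WT. Krt23 (log2 -2.01 in WT, -2.24 in KO) and Krt24 (log2 -3.03 and -2.49) fell in both, and Krt79 fell in KO (log2 -0.80, adjusted p = 0.00436). Krt18 and Krt42 stayed low, with means of at most 6.40 cpm in irradiated WT or KO mice. Of 15 hair shaft keratins tested, 1 passed in WT and 0 in KO, and of 9 inner root sheath and companion layer keratins 1 passed in each. These hair keratins varied widely between mice, so changes in them could go uncalled. The SE of their log2 change in WT ran from 0.32 (Krt84) to 1.12 (Krt71). For the 9 keratins it ran from 0.11 (Krt80) to 0.55 (Krt2). None of the 36 passed in any of the 3 genotype comparisons.

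Genes that accompany these keratins in the same layers were examined as lists, and their counts stand beside 34.5% of all genes higher and 36.5% lower in WT, and 37.3% higher and 33.5% lower in KO. Of 11 basal layer genes that are not keratins, 8 rose and 1 fell in WT (median log2 change 1.35), and 10 rose and 0 fell in KO (median 2.04). Among those that rose in WT were Itgb1, an integrin subunit (log2 2.56), and Itga3, its partner (2.01). Dst, which links K5 and K14 filaments to hemidesmosomes, fell in WT (log2 -0.69). Of 15 suprabasal genes that are not keratins, 6 rose and 8 fell in WT (median -0.33), and 4 rose and 9 fell in KO (median -0.49). The cornified envelope and filament-binding genes Flg2 (log2 -4.64), Lor (-2.38) and Flg (-1.67) had the largest changes in WT. Of 8 genes that link keratin filaments to desmosomes or other filaments, 1 rose and 4 fell in WT, with periplakin (Ppl) at -1.03, epiplakin (Eppk1) at -0.66 and the desmosomal plakophilin Pkp3 at 0.61. In KO 1 rose and 5 fell. Of 21 transcription factors and receptors known to act on keratin genes, 13 rose and 6 fell in WT, and 13 rose and 5 fell in KO. Among them Fosl1, an AP-1 subunit, had a log2 change of 5.18 in WT, Pou2f3, a POU factor of suprabasal cells, -1.76 and Junb, another AP-1 subunit, 1.28. The median over all genes was -0.01 in WT and 0.09 in KO.

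The loss of Ppard was compared between the KO and WT groups, with no pairing by litter. None of the 9 keratins passed between KO and WT without UV (0.206% of all genes passed), after UV (3.31%) or in the difference between their UV responses (0.765%). Unadjusted p-values under 0.05 were found for 3 keratins without UV, for 0 after UV and for 2 in the difference of responses, and for 1324, 3121 and 3042 of the 15546 genes tested in these comparisons. KO and WT mice overlapped for all 9 genes, without and with UV (0.103% and 0.187% of all genes did not overlap). The changes without UV were -0.47 for Krt5 (95% confidence interval -0.85 to -0.10, adjusted p = 0.433), -0.51 for Krt15 (-1.01 to -0.02, adjusted p = 0.562) and 1.39 for Krt2 (0.30 to 2.48, adjusted p = 0.433), on the log2 scale. For Krt14 the interval was -0.65 to 0.22, for Krt10 -0.26 to 0.57 and for Krt1 -0.22 to 0.67. The log2 ratios of Krt5 to Krt14, Krt1 to Krt10 and Krt14 to Krt10 did not pass between the genotypes either, with exact permutation p from 0.0918 to 0.677. For Krt5 to Krt14 after UV the unadjusted exact p was 0.0498 without the WT female 59F and 0.0106 without the KO male 59M.

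The UV responses of Krt5 in the 2 genotypes, a fall in WT and a log2 value of 0.25 in KO, differed by 0.75 (SE 0.26, unadjusted p = 0.00687, edgeR adjusted p = 0.121). For Krt15 the difference was 0.89 (SE 0.36, unadjusted p = 0.0192, adjusted p = 0.173). Neither passed after adjustment. Without mouse 54F the 2 differences were 0.79 (adjusted p = 0.116) and 0.99 (adjusted p = 0.127). After UV, the intervals of KO against WT were -0.36 to 0.51 for Krt14, -0.42 to 0.41 for Krt10, -0.62 to 0.27 for Krt1 and -0.09 to 0.65 for Krt5. These intervals average the sexes, whose values ran in opposite directions for some genes. In males alone the log2 change was 0.45 for Krt10, 0.42 for Krt1 and 0.48 for Krt78. In females alone it was -0.46, -0.78 and -0.51 for the same genes, and none of these values passed.

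Sex separated Krt2 in every setting. The 4 WT male Control mice held 133, 244, 264 and 516 cpm, and the 4 WT female Control mice 6.21, 16.9, 87.0 and 106 cpm. KO male Control mice held 250, 1029, 1561 and 1571 cpm, and KO females 34.6, 47.5, 112 and 195 cpm. Every male was above every female of the same genotype. After UV, WT males held 52.4, 58.2, 78.4 and 142 cpm, and WT females 3.71, 3.93, 7.42 and 17.9 cpm. KO males held 74.1, 118, 119 and 462 cpm, and KO females 1.34, 4.93, 6.05 and 8.20 cpm. The sexes were again apart, and irradiated males stayed within or above the range of unirradiated females of their genotype. Such a separation, with males higher in all 4 combinations of genotype and treatment, was found for 9 of 15546 genes (0.0579%). Krt2 was 1 of them, and 7 (Ddx3y, Eif2s3y, Kdm5d, Uty, Gm28588, Gm29650 and Gm4017) lie on the Y chromosome. This count was made after the values of Krt2 had been seen. Within single groups, males above females without overlap were found for 2.1% of all genes in WT Control, 1.45% in WT UV, 9.15% in KO Control and 4.76% in KO UV mice, and males below females for 2.5%, 1.61%, 5.46% and 6.91%.

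Averaged over the genotypes, Krt2 was 7.79-fold lower in females without UV (log2 -2.96, SE 0.56, adjusted p = 0.00322) and 19.5-fold lower after UV (log2 -4.28, SE 0.61, adjusted p = 1.58e-04). In all, 2 of the 9 keratins passed between the sexes without UV, beside 6.86% of all genes (2.22% higher and 4.64% lower in females), and 3 after UV, beside 3.03% (1.88% higher and 1.14% lower). The second gene without UV was Krt15, 1.92-fold higher in females (log2 0.94, SE 0.24, adjusted p = 0.0205). WT male Control mice held 118 to 254 cpm of Krt15 and WT females 234 to 501 cpm, and KO males 102 to 145 cpm and KO females 180 to 335 cpm, so that the sexes were apart in KO and overlapped in WT. The call was lost without mouse 61F (adjusted p = 0.0607) or 56M (adjusted p = 0.0537).

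After UV, Krt1 was 1.8-fold lower (log2 -0.84, SE 0.22, adjusted p = 0.0355) and Krt10 1.70-fold lower in females (log2 -0.76, SE 0.20, adjusted p = 0.0381). Krt1 reached 5065 to 10583 cpm in KO male UV mice and 1547 to 4967 cpm in KO females, and 4068 to 8171 cpm in WT males and 2445 to 6995 cpm in WT females. The sexes were apart in KO and overlapped in WT. Both calls were lost without any one of the mice 54F, 59M, 59F, 77F and 32M, at adjusted p from 0.0680 to 0.0925, and that of Krt1 also without 66F (adjusted p = 0.0509). The Krt10 call was lost with no filter on low counts as well (adjusted p = 0.0509). The difference of the UV responses between the sexes passed for none of the 9 keratins in either genotype, as for 0 of all genes with edgeR (0.0%), where 419 genes in WT and 1482 in KO had an unadjusted p under 0.05. DESeq2 called 3 genes in WT and 35 in KO for the same difference, none of them among the 9. In KO the difference was -1.01 for Krt1 (95% confidence interval -1.91 to -0.12, unadjusted p = 0.0275, adjusted p = 0.448).

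The genes outside the 9 whose pattern over the 32 mice was most like each keratin were found as those with the smallest root mean square (RMS) difference of centred log2 cpm. For Krt10 they were Gpat3 (RMS 0.27), Lce1a1 (0.28) and Lor (0.30), and for Krt1 Lce1d (0.29), Lce1c (0.30) and Them5 (0.32), where the RMS of these keratins themselves was 1.27 and 1.46. Krt1 and Krt10 differed from each other by 0.30. For Krt78 the nearest were Otop3 (0.34), Gpsm1 (0.35) and Rapgef4 (0.38), and for Krt77 Skint5 (0.47), Bbox1 (0.48) and Tesc (0.59). For Krt14 they were Orc1 (0.26), Stom (0.27) and Cpne2 (0.29), and the nearest of the other 8 keratins was Krt80 at 0.92. Krt5 was followed most closely by Moxd1 (0.15), Agrn (0.17) and Mcm6 (0.18), and Krt80 by Lypd5 (0.13), Mpzl3 (0.14) and Pip5k1a (0.15). Krt15 had looser neighbours in Sostdc1 (0.79), Col4a6 (0.79) and Gna14 (0.81), beside its own RMS of 2.92. Krt2 had no close neighbour, with Adh6a at 1.67, Adh1 at 1.81 and Gm43235 at 1.86, beside its own RMS of 2.63. All 32 libraries enter each of these values, so they share the UV effect and the library scaling.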

How the data were processed

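RNA of peeled dorsal epidermis (RNA quality number 6.4 to 8.4 per the labels, while the study's methods give a higher range) was sequenced from a stranded poly(A) library as single reads. The authors trimmed adapters with Cutadapt 1.8, removed ribosomal reads, aligned to GRCm38 with STAR 2.5.3a and counted reads per gene with HTSeq 0.9.1, and the deposited values are whole-number counts. The strand setting of the counting is not given in the sources used here. Summary rows were left out of library sizes. Reads outside genes were 6.80% to 9.75% of all reads on genes, outside genes or ambiguous between genes. Alignments that were not unique are not in this percentage or in the gene counts. Their entries stood at 0.51 (69M) to 0.71 (58M) per read on genes, and their part in the keratin results was not tested. No 2 mice of a group agreed within sampling noise (48 pairs). A gene was tested if any mouse reached 1 cpm. edgeR 4.0.16 (TMM scaling, quasi-likelihood test, 8 group means, Benjamini-Hochberg over all genes tested) in R 4.3.3 was the main test, after tests on simulated data. limma 3.58.1 and DESeq2 1.42.0 were alternatives. Standard errors and intervals of log2 changes come from its F test. Ratios were tested by exact permutation within sex. Levels between genes were divided by exonic length (GENCODE, GRCm38). The keratins and gene lists were chosen with earlier results of these data known. All 9 keratins are described. Of other lists, the 3 members with the largest called change in WT are named, of the 36 other keratins tested those that passed, and for each keratin the 3 genes most like it. Some genes that these rules would name are not reported here. Dst was named after its value was seen. Mice are named by the animal number and sex letter of their labels, and each mouse is 1 replicate.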

Additional observations from a re-analysis of the deposited data

Results flagged for a closer look

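In 96 groups of 4 mice (9 keratins and 3 ratios in 8 groups), 4 single mice stood apart from the other 3 of their group by Dixon's criterion at 95%, which flags about 1 group in 20 by chance. Krt5 was lowest in the WT female UV mouse 57F, at 2288 cpm, where the others held 3317 to 3453 cpm. Krt1 was lowest in the WT male Control mouse 54M, at 24824 cpm against 27635 to 28008 cpm. Krt2 was highest in the KO male UV mouse 58M, at 462 cpm against 74.1 to 119 cpm. The log2 ratio of Krt1 to Krt10 was lowest in the WT female Control mouse 71F, at -0.34 against -0.21 to -0.20. No difference of UV responses between genotypes or sexes passed for a keratin.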

How the results depend on the processing

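Each animal number of the labels names 1 mouse or 1 male and 1 female, and 8 numbers recur. Mice with the same number did not deviate together (correlation of their deviations from the group means -0.19 to 0.099 over 8 pairs), so the numbers were not taken as pairs. With the number as a replicate block in limma, added after seeing the data, genes called for genotype after UV were 275, against 260 by limma without it, the keratins called were 9 and 8 for UV, 0 for genotype and 2 and 3 between the sexes, and the sex-by-UV value of Krt77 in WT was -0.0081. The keratin calls for UV and genotype were recomputed with DESeq2, limma, RLE scaling, other filters, scaling without keratin reads, 1 sex only and each mouse left out. Keratins called for UV stayed at 8 or 9 in WT and 7 or 8 in KO, and at 0 in the 3 genotype comparisons. The sex comparisons, the fits within 1 sex and genotype and the coding length were added after seeing the data. Keratins called ranged from 1 to 5 after UV (3 with all mice; 1 without 54F, 59M, 59F, 77F or 32M, 5 without 74F) and from 1 to 2 without UV (1 without 61F or 56M) when 1 mouse was left out. Genes called for genotype without UV were 32, with 78 by DESeq2, 3 in females, 12 in males and 20 to 45 without 1 mouse. After UV they were 514, with 1116 by DESeq2, 260 by limma, 263 without a filter, 1540 in females, 22 in males and 133 to 983 without 1 mouse. For the genotype-by-UV difference they were 119, with 777 by DESeq2, 55 without a filter, 39 in females, 12 in males and 56 to 346 without 1 mouse. Between the sexes they were 471 after UV (1196 by DESeq2, 239 without a filter, 117 to 1043 without 1 mouse). Without UV they were 1066 (1676 by DESeq2, 653 with filterByExpr, 327 without a filter, 673 with scaling without keratin reads, 464 to 1753 without 1 mouse). The sex-by-UV difference had 0 genes (DESeq2 3 in WT and 35 in KO, 0 to 2 in KO without 1 mouse). The log2 ratio of Krt1 to Krt10 under UV in WT ran from -0.34 to -0.21 and passed the unadjusted threshold except without 38M, 43M, 57F or 77F. That of Krt5 to Krt14 between genotypes after UV ran from 0.16 to 0.26, and that of Krt14 to Krt10 from -0.028 to 0.32, turning sign without 66F. Signs turned for genotype values that did not pass. In females without UV, Krt10 was -0.014, Krt77 0.0039 and Krt80 -0.0012. After UV, in males Krt5 was -0.013, Krt14 -0.0052, Krt1 0.42, Krt10 0.45, Krt77 0.18, Krt78 0.48 and Krt80 0.17, and in females Krt15 was -0.013 and Krt2 -0.68. The genotype-by-UV difference in males was 0.13 for Krt10 and 0.29 for Krt77. Per kb of coding length the WT means of Krt1 were 10998 and 2082 and those of Krt80 286 and 412. With 1 mouse left out, the genotype change after UV ran from -0.25 to 0.10 for Krt10, -0.21 to 0.62 for Krt2, -0.36 to 0.072 for Krt77 and -0.22 to 0.072 for Krt78. For Krt77 it ran from -0.22 to 0.065 without UV and from -0.31 to 0.13 for the genotype-by-UV difference. The sex-by-UV difference in WT ran from -0.27 to 0.085 for Krt14, -0.50 to 0.016 for Krt1, -0.14 to 0.35 for Krt77 and -0.16 to 0.084 for Krt80, and in KO from -0.28 to 0.038 for Krt5 and -0.30 to 0.13 for Krt14. The cause of these changes was not tested. Krt15 in irradiated mice rests on as few as 46 reads.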
